A study of Mus musculus with 36 samples.

Results

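The 10 genes described here encode chaperones of the cytosol (Hspa1a, Hspa1b, Hspa8, Hsph1 and Dnajb1) and of the endoplasmic reticulum, or ER (Hspa5, Hsp90b1, Pdia4 and Dnajb9). With them is Xbp1, which encodes a transcription factor of the response to unfolded protein in the ER. They were chosen by gene symbol from the 24421 genes counted in each library by a rule that uses no values, with earlier results of these data known, and all 10 passed the filter on low counts in each of the 5 comparisons. RNA was sequenced from the whole liver of 36 male C57BL/6J mice, 1 library per mouse. All of the mice had received the CDAHFD, a choline-deficient and methionine-poor fat diet that causes steatohepatitis, for 12 weeks, and they were 7 weeks old at purchase. In the HFD experiment they then ate a high-fat diet for 14 days and were injected under the skin 2 times, 10 mice with Fc at 4.3 mg/kg (the Fc group) and 10 mice with Fc(mML1)B3 at 5 mg/kg. In the standard diet experiment they ate a standard diet for 10 days and had 3 injections of the same doses, of Fc in 9 mice and of Fc(mML1)B3 in 7 mice. Fc is the constant part of a human antibody, and Fc(mML1)B3 is the same protein with a peptide built into a surface loop, through which it binds and activates Met, the receptor of hepatocyte growth factor. Diet, experiment, number of injections and time on the diet went together, so that differences between the experiments cannot be told apart from any one of them.

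Chaperones bind unfolded stretches of other proteins and release them in cycles of ATP hydrolysis, and co-chaperones of the DnaJ family deliver clients and start those cycles. Heat and other stress in the cytosol free the factor HSF1, which turns on Hspa1a, Hspa1b, Hsph1 and Dnajb1, whereas Hspa8 encodes the form made constantly. Unfolded protein in the ER is sensed by IRE1, PERK and ATF6, which raise ER chaperones such as Hspa5, and the liver depends on this system because hepatocytes secrete most proteins of the plasma.

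On mm10, Hspa1a (chr17:34969359-34972156, minus strand) and Hspa1b (chr17:34956429-34959238, minus strand) are neighbouring genes of 1 exon each. Both encode inducible HSP70. Of the 100-base stretches in the annotated Hspa1a transcript, 47.1% are also found in that of Hspa1b, and 49.9% the other way round. The counts leave out reads with several alignments, so reads of this pair may have been lost. How much of their sequence went uncounted was not tested, since the reads were paired and these shares are of single stretches. Their levels are therefore uncertain relative to each other and to the other genes. Hspa8, the constant HSP70, lies on chr9:40801273-40805199 (plus), Hsph1, which exchanges the nucleotide of HSP70, on chr5:149616845-149636315 (minus), and Dnajb1, a DnaJ partner of HSP70, on chr8:83608175-83612653 (plus). Hspa5, which encodes the HSP70 of the ER known as BiP, lies on chr2:34772090-34776529 (plus) and Hsp90b1, the HSP90 of the ER, on chr10:86690841-86705444 (minus). Pdia4, which forms and rearranges disulfide bonds, lies on chr6:47796141-47813512 (minus) and shares exonic bases with the microRNA gene Mir704. Dnajb9, a DnaJ partner of BiP, lies on chr12:44205897-44210068 (minus) and Xbp1, whose RNA is spliced by IRE1, on chr11:5520641-5525993 (plus). The values count all exonic reads of a gene, so the spliced and the unspliced form of Xbp1 were measured together.

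The promoters are shown because the cytosolic and the ER genes are known to answer to different factors, which bind these motifs. RefSeq promoter windows on GRCm38.p6 were matched for 9 of the 10 genes, and 4 motifs were searched on both strands. The ER stress element, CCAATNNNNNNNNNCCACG, was in 39 of 32851 windows (0.119%), among them those of Hspa5 and Hsp90b1. In the sequences below, which end at the base before the RefSeq start and are written 5′ to 3′ on the strand of the gene, capitals mark this element; Hsp90b1 holds it once in each orientation. The first is at chr2:34771980-34772089 and the second at chr10:86705445-86705674.
Hspa5: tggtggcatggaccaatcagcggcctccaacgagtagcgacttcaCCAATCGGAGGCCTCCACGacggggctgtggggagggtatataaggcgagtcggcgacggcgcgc
Hsp90b1: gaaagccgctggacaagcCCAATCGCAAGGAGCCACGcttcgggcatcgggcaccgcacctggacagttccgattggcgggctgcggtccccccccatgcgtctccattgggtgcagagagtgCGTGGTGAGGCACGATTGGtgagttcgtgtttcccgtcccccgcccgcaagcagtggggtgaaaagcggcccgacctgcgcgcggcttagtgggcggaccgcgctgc

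A pair of heat shock units, GAANNTTC or TTCNNGAA, is a weak criterion, since it was in 15.1% of all windows. It was in those of Hspa1a, Hspa1b and Hsph1, at chr17:34972157-34972286, chr17:34959239-34959368 and chr5:149636337-149636416, where capitals mark it. For Hsph1 the window of the more upstream of its 2 RefSeq starts is shown, which lies before the start in the coordinates given above.
Hspa1a: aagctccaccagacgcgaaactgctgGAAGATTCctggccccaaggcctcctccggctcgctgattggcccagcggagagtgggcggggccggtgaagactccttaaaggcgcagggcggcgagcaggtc
Hspa1b: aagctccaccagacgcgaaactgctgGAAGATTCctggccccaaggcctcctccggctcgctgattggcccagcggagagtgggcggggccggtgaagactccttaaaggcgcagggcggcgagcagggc
Hsph1: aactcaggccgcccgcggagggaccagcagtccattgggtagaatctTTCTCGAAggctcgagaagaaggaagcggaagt

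Over the 250 bases before the start, Hspa1a and Hspa1b were equal at 247 positions (98.8%). The longer heat shock element of 3 units, GAANNTTCNNGAA or TTCNNGAANNTTC, was in 0.603% of the windows and among the 9 genes in that of Hsph1, after its start. The unfolded protein response element, TGACGTGG, was in 0.676% of the windows and in none of the 9 genes. Among 26 further ER folding genes listed for this report, 20 had a window, and 5 of these (Calr, Canx, Pdia6, Creld2 and Dnajc3) held the ER stress element upstream of the start, as did 0.113% of all windows.

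Total counts per library ranged from 14949035 to 28466853, with a median of 23558194.5. Within a gene, levels are in CPM, its read count scaled by TMM to a common library size, and between genes as CPM per kilobase of exon. Markers of hepatocytes (Alb, Ttr, Apoa1, Serpinc1 and Hnf4a) summed to between 68719 and 140438 CPM in every mouse, as in liver. Whole tissue was measured, so that fewer cells of a type and less RNA per cell cannot be told apart. Each library is a separate mouse, and no 2 libraries of 1 group were duplicates.

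In the Fc group of the HFD experiment, the constant chaperone Hspa8 had the highest level per length, 507 ± 115 CPM per kilobase (SD, n = 10), and its range did not overlap that of the next gene. The ER chaperones Hsp90b1 (242 ± 31.6) and Hspa5 (194 ± 45.7) followed, and their ranges overlapped, although Hsp90b1 was above Hspa5 in all 10 mice. Xbp1 (92.2 ± 21.2) and Pdia4 (78.3 ± 8.44) overlapped too, and Xbp1 was the higher in 8 of 10 mice. Dnajb9 stood apart at 30.4 ± 4.80 CPM per kilobase. The inducible cytosolic genes were the lowest, Hsph1 at 9.47 ± 3.30, Dnajb1 at 7.70 ± 1.74, Hspa1b at 3.16 ± 1.62 and Hspa1a at 0.610 ± 0.235 CPM per kilobase, with overlap between Hsph1 and Dnajb1 and between Dnajb1 and Hspa1b. The level of Hspa1a rested on 10 to 61 reads per mouse.

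**Figure D1:**
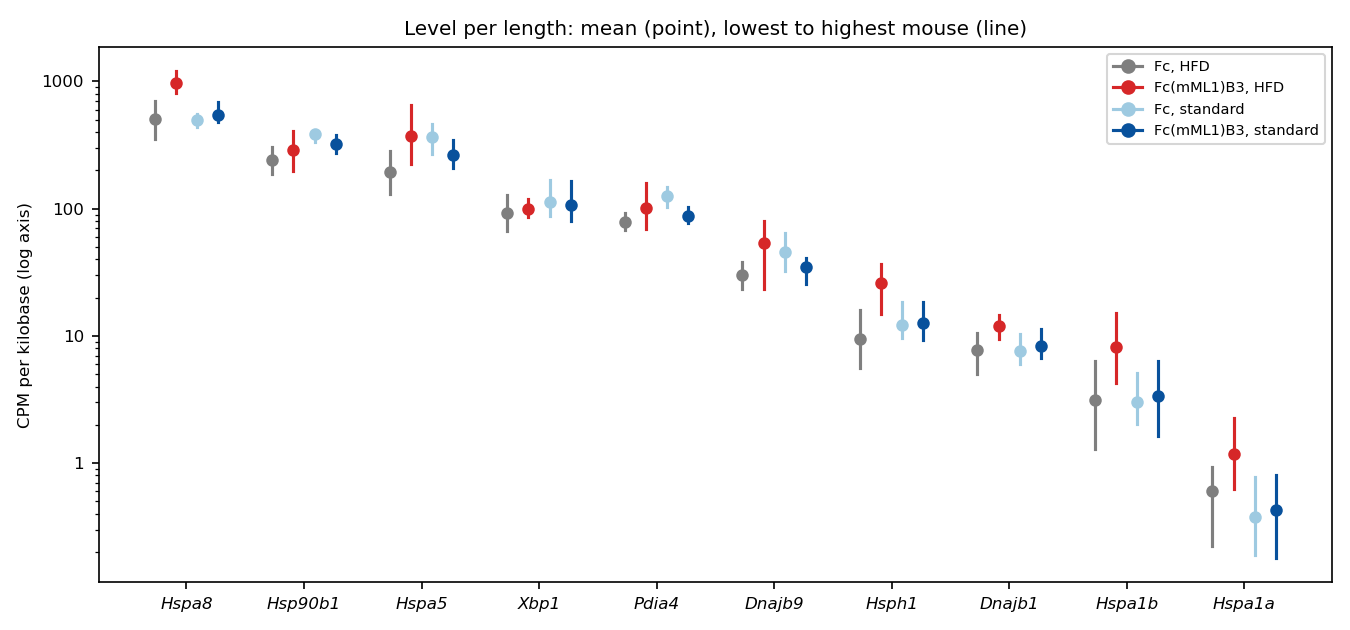
Level of each gene per exon length in the 4 groups, in CPM per kilobase on a log axis. Points are group means and lines run from the lowest to the highest mouse (n = 10, 10, 9 and 7); Hspa8 is the highest and Hspa1a the lowest in every group, and in the Fc(mML1)B3 mice under the HFD Hspa5, at 376, had a mean above that of Hsp90b1, at 290 (289.8).

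The same order held in the other groups at both ends, with Hspa8 first and Dnajb9, Hsph1, Dnajb1, Hspa1b and Hspa1a last. Places changed among the ER genes. With Fc(mML1)B3 under the HFD, Hspa5 (376 ± 136.9 CPM per kilobase, SD, n = 10) exceeded Hsp90b1 (289.8 ± 68.2) in all 10 mice. In the other 3 groups Hsp90b1 had the higher mean of the pair.

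The first question is whether these genes differed between Fc(mML1)B3 and Fc mice under the HFD. They did in 8 of 10 cases, all of them higher with Fc(mML1)B3, beside 8.14% of the 13299 genes tested that were higher and 6.68% that were lower (edgeR, quasi-likelihood F-test, Benjamini-Hochberg adjusted p below 0.05). The median log2 fold change was 0.88 over the 10 genes and -0.01 over all genes tested. All 5 cytosolic genes rose, by 1.56-fold (Dnajb1) to 2.80-fold (Hsph1). Of the ER genes Hspa5, Dnajb9 and Pdia4 rose, and the differences of Hsp90b1 and Xbp1 did not pass.

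Hspa8 had 741 to 1464 CPM (median 1099) with Fc and 1701 to 2526 CPM (median 1957) with Fc(mML1)B3. Every Fc(mML1)B3 mouse lay above every Fc mouse, which was so for 0.91% of all genes tested in either direction and for no other of the 10. On the log2 scale it rose by 0.94 (standard error, SE, 0.12, edgeR adjusted p = 1.74e-05).

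Hsph1 ranged from 19.4 to 55.6 CPM (median 32.5) with Fc and from 51.4 to 128 CPM (median 96.6) with Fc(mML1)B3. The groups overlapped by a single mouse on either side, since 9 of the 10 Fc(mML1)B3 mice were above the highest Fc mouse. The log2 fold change was 1.49 (SE 0.19, edgeR adjusted p = 1.47e-05).

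Hspa1b ranged from 3.66 to 17.8 CPM (median 9.47) with Fc and from 12.0 to 42.2 CPM (median 21.3) with Fc(mML1)B3. Among the latter 8 of 10 mice were above the highest Fc mouse, and mouse 9 was the highest. The log2 fold change was 1.39 (SE 0.26, edgeR adjusted p = 0.000948). Its neighbour Hspa1a had 0.621 to 2.63 CPM (median 1.52) with Fc and 1.75 to 6.28 CPM (median 3.36) with Fc(mML1)B3, and the fold change of 0.97 on the log2 scale (SE 0.24, edgeR adjusted p = 0.00917) rested on at most 100 reads in a mouse. Mouse 9 was again the highest.

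Dnajb1 rose the least of the cytosolic genes, from 16.2 to 33.9 CPM (median 25.02) with Fc to between 30.5 and 47.4 CPM (median 38.1) with Fc(mML1)B3. All 10 Fc(mML1)B3 mice were above the Fc median and 8 above the highest Fc mouse. The log2 fold change was 0.64 (SE 0.12, edgeR adjusted p = 0.000557).

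Hspa5, the main HSP70 of the ER, ranged from 344 to 739 CPM (median 495) with Fc and from 582 to 1711 CPM (median 971) with Fc(mML1)B3. Here 6 of the 10 Fc(mML1)B3 mice were above the highest Fc mouse, and the spread among them was wide, from 582 CPM in mouse 2 to 1324 in mouse 8 and 1711 in mouse 10. The log2 fold change was 0.97 (SE 0.18, edgeR adjusted p = 0.000692). Dnajb9, its co-chaperone, had 44.0 to 71.2 CPM (median 53.0) with Fc and 43.5 to 149.9 CPM (median 97.2) with Fc(mML1)B3, where 9 mice lay above the highest and mouse 2 below the lowest Fc mouse. Its log2 fold change was 0.83 (SE 0.16, edgeR adjusted p = 0.00091).

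Pdia4 had 169 to 231 CPM (median 194) with Fc and 173 to 396 CPM (median 238) with Fc(mML1)B3. The Fc(mML1)B3 mice were split, with 6 above the highest Fc mouse and 4 below the Fc median. The log2 fold change of 0.39 (standard error 0.13) had an adjusted p of 0.0476 from edgeR, and 14 of the 20 fits that left out 1 mouse gave an adjusted p above the threshold (range 0.0165 to 0.092), as did upper-quartile scaling (0.0691). Hsp90b1 had 516 to 836 CPM (median 682) against 548 to 1128 CPM (median 786), with 4 of 10 Fc(mML1)B3 mice above the highest Fc mouse and 4 below the Fc median. Its log2 fold change of 0.27 had a 95% interval of 0.02 to 0.51 and an adjusted p of 0.129 from edgeR. Xbp1 had 149.8 to 288 CPM (median 188) with Fc and 194 to 269 CPM (median 215) with Fc(mML1)B3, a log2 fold change of 0.12 with a 95% interval of -0.12 to 0.36.

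**Figure D2:**
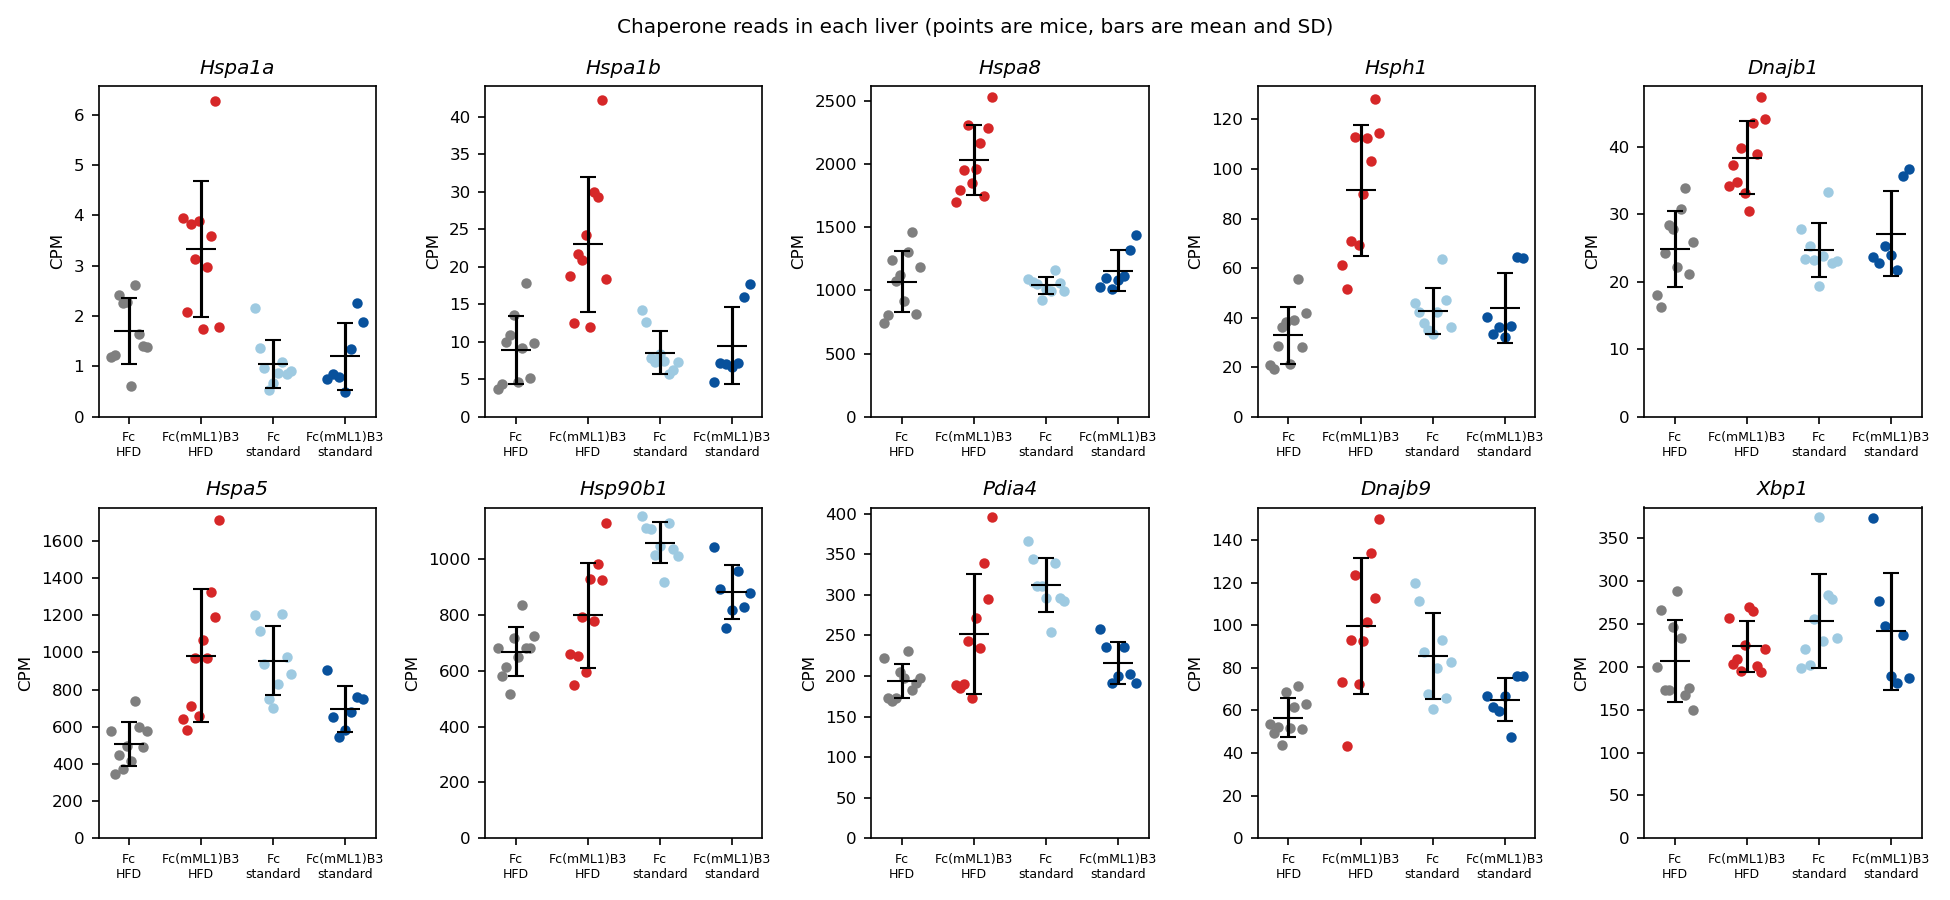
Reads of each gene in every mouse, in CPM on linear axes that start at 0. Points are mice, in the order of their numbers within a group, and the bars are the mean and SD (n = 10, 10, 9 and 7); the points of Hspa8 with Fc(mML1)B3 under the HFD lie at 1701 CPM or above, clear of the Fc points at 1464 or below, and under the standard diet Hspa5, Hsp90b1, Pdia4 and Dnajb9 are lower with Fc(mML1)B3.

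Further genes of the same systems were counted from lists. Of 33 other genes listed as cytosolic heat shock genes, 15 were higher and Dedd2 was lower, with a median log2 fold change of 0.19. Hsp90aa1, the inducible cytosolic HSP90, rose by 1.08 (SE 0.15, edgeR adjusted p = 4.36e-05). Stip1 (0.80), which links HSP70 to HSP90, Dnaja1 (0.70), a DnaJ partner of HSP70, and Fkbp4 (0.67), an HSP90 co-chaperone, rose as well. The list also holds Hspa13, an HSP70 relative of microsomes, Dnajb12 of the ER membrane and Dedd2, which is not a chaperone. The list of heat shock factors holds Hsf1, Hsf2, Hsf4 and Hsbp1, which encodes a binding protein of a factor. None of these 4 genes passed, with 1 higher at an unadjusted p below 0.05 and 0 called by DESeq2. Hsf1 had a log2 fold change of 0.10 (adjusted p = 0.453 from edgeR).

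Of 26 further ER folding genes 9 were higher. Those with the smallest p were Hyou1 (1.19), which exchanges the nucleotide of BiP, Creld2 (1.27) and Manf (1.09), both released from stressed ER, and Txndc11 (0.34). Of 20 tested genes of ER export and degradation 7 were higher, among them Syvn1 (1.00), the ubiquitin ligase of ER-associated degradation, Sec24d (0.57), a coat protein of export vesicles, Edem1 (0.38) and Ubxn4 (0.38). The sensors and factors of the unfolded protein response held 3 of 11 that rose, Atf6b (0.48), Eif2ak3 (0.41), which encodes PERK, and Atf4 (0.31). In none of these 3 lists did a gene fall, also at an unadjusted p below 0.05 and with DESeq2. Among 8 mitochondrial chaperones and proteases Dnaja3 (0.49) and Hspd1 (0.29) rose.

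Genes of the circadian clock moved with these chaperones. Of 14 tested clock genes, 5 were higher and 8 lower. Arntl, which encodes BMAL1, had 0.621 to 2.12 CPM with Fc and 6.59 to 28.6 CPM with Fc(mML1)B3. Dbp, an output of the clock whose exons overlap those of Sphk2, had 73.0 to 133.4 CPM with Fc and 3.14 to 24.8 CPM with Fc(mML1)B3. Neither pair of ranges overlapped, and the hour at which each liver was taken is not given in the sources used here. The 2 genes were joined into a clock measure, log2 CPM of Arntl minus that of Dbp, which was -6.88 to -4.84 with Fc and -1.84 to 2.94 with Fc(mML1)B3. Because these ranges do not meet, the agonist and the state of the clock cannot be told apart under the HFD. With the measure as a covariate, edgeR called 0 of the 10 genes and 0 of all 13299 genes (4 of the 10 genes and 1130 of all had an unadjusted p below 0.05), the median standard error of the 10 genes grew from 0.143 to 0.351 on the log2 scale, and the fold changes of 7 turned negative, such as that of Hspa5 (-0.99, adjusted p = 0.569 from edgeR).

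Among the HFD mice given Fc(mML1)B3 the clock measure and the ER chaperones varied together over the 10 mice. This relation was examined after the values had been seen, as 40 correlations of the 10 genes in the 4 groups, with permutation tests of 100000 resamples and adjustment over the 40. For Hspa5 Pearson's r was 0.918 (permutation p = 0.00022, adjusted p = 0.0088) and Spearman's rho 0.952 (permutation p = 9e-05, adjusted p = 0.0036), and r was 0.914 without the 2 mice farthest from the median of the measure. The 3 mice with the lowest clock measure had 582 to 659 CPM of Hspa5 and those with a measure above 2 had 1069 to 1711 CPM. Hsph1 (r = 0.901, rho = 0.879, permutation p = 8e-04 and 0.00126, adjusted p = 0.0107 and 0.0168), Hsp90b1 (r = 0.889, rho = 0.842, permutation p = 0.00067 and 0.0038, adjusted p = 0.0107 and 0.038) and Pdia4 (r = 0.873, rho = 0.903, permutation p = 0.00151 and 0.00076, adjusted p = 0.0128 and 0.0152) passed as well. Without the 2 farthest mice their r was 0.837, 0.939 and 0.909. Dnajb9 passed by Pearson's r alone (r = 0.793, permutation p = 0.00445, adjusted p = 0.0297; rho = 0.782, permutation p = 0.0105, adjusted p = 0.0602). Hspa1a (r = -0.0815, adjusted p = 0.884; rho = -0.164, adjusted p = 0.729, permutation tests) and Xbp1 (r = -0.126, adjusted p = 0.846; rho = -0.285, adjusted p = 0.549, permutation tests) showed no such relation.

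Among the HFD mice given Fc none of the 10 genes passed by Pearson's r. Hsph1 came closest among the positive ones (r = 0.766, rho = 0.794, permutation p = 0.0114 and 0.00932, adjusted p = 0.0572 and 0.0602), and its r was 0.503 without the 2 farthest mice. Xbp1 went the other way, with r = -0.739 (permutation p = 0.0176, adjusted p = 0.0705) and rho = -0.818 (permutation p = 0.00563, adjusted p = 0.045). Whether a correlation differed between the groups was not tested.

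**Figure D3:**
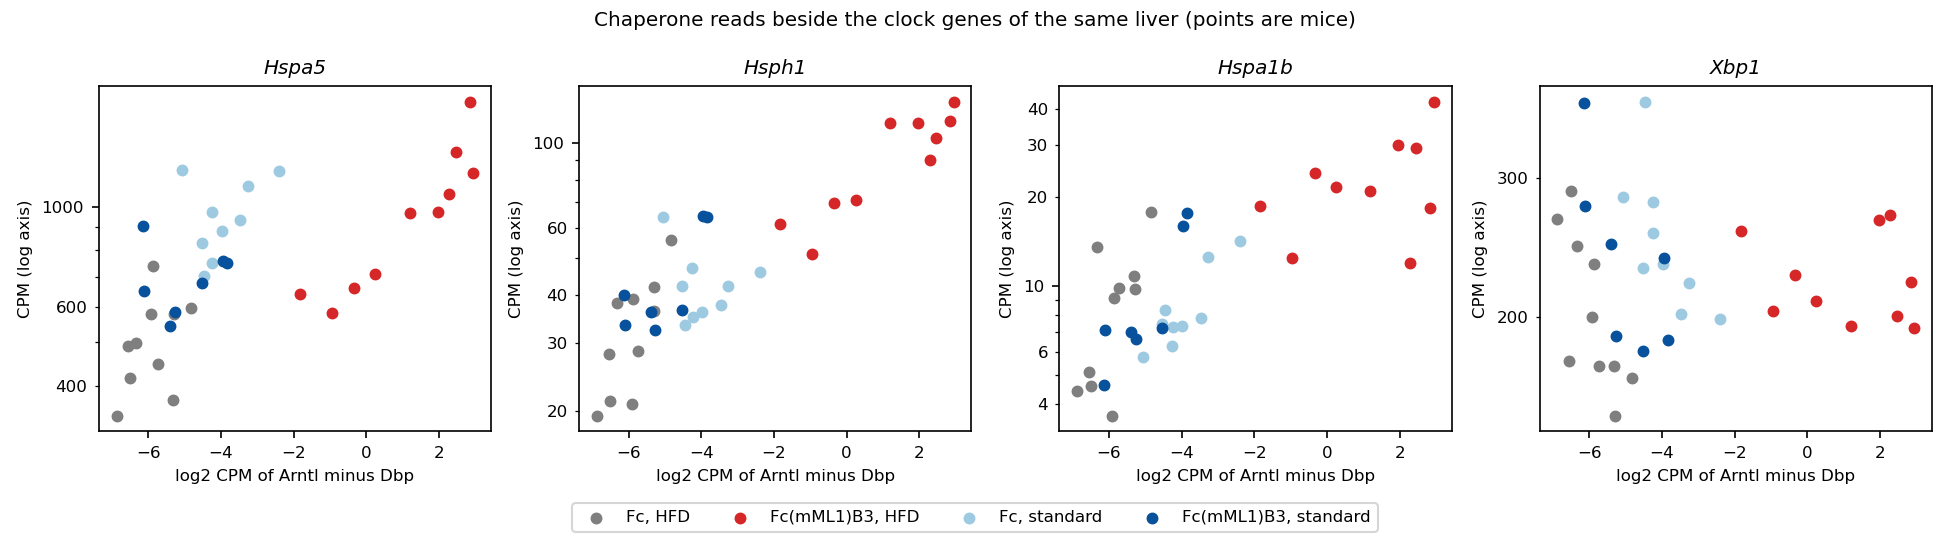
Reads of 4 of the genes (CPM, log axis) against the clock measure, log2 CPM of Arntl minus log2 CPM of Dbp, with 1 point per mouse and 1 colour per group. The Fc(mML1)B3 mice under the HFD lie at -1.84 to 2.94 on the horizontal axis and all other mice at -6.88 to -2.40; within the former Hspa5 goes from 582 to 1711 CPM along that axis, and Xbp1 shows no such slope.

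The deposited names carry S numbers whose relation to RNA extraction or sequencing is not given. The 10 Fc libraries of the HFD experiment form 1 run of these numbers and the Fc(mML1)B3 libraries 2 others, of 4 mice (1 to 4) and 6 mice (5 to 10). With the 4 mice alone, edgeR called 3 of the 10 genes higher (Hspa8, Hsph1 and Dnajb1) beside 2.99% of all genes. All 10 log2 fold changes were above 0, with Hsp90b1 at 0.02 and Pdia4 at 0.08. With the 6 mice alone it called 9 higher, Hsp90b1 (0.42) and Pdia4 (0.56) included, beside 7.32% of all genes. Hspa5 had a mean of 726 ± 170.4 CPM (SD, n = 4) in the former and 1154 ± 354 CPM (SD, n = 6) in the latter, where the clock measure was -1.84 to 1.19 and -0.335 to 2.94. The part of the S number and of the clock in these differences was not tested. Among other cell types, 3 of 5 tested B and plasma cell markers and 2 of 3 neutrophil markers were lower with Fc(mML1)B3, and 1 of 5 hepatocyte markers, Hnf4a, was higher (0.37). The summed level of the B and plasma cell markers was 8.01 to 35.3 CPM with Fc and 4.97 to 15.9 CPM with Fc(mML1)B3. That of the neutrophil markers was 4.96 to 54.3 and 4.92 to 11.2 CPM. Tnfrsf17, a B and plasma cell marker, was at 0 in all Fc(mML1)B3 mice. The part of these cell types in the chaperone levels was not tested. One of 10 immediate early genes, Junb, was lower (-0.80), and of the cold-inducible genes Cirbp was lower (-0.64).

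Under the standard diet the same question gave another picture. Of the 10 genes 4 were lower with Fc(mML1)B3, all of the ER (Pdia4, Hspa5, Dnajb9 and Hsp90b1), beside 7.55% of 13570 genes that were lower, and 0 were higher, beside 8.56% (edgeR's quasi-likelihood test). DESeq2 also called 0 higher, and 1, Hspa8, was higher at an unadjusted p below 0.05. No cytosolic gene passed, and their log2 fold changes lay between 0.04 and 0.18. The median over the 10 genes was -0.02 and that over all genes tested -0.01.

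Pdia4 ranged from 255 to 366 CPM (median 311) in 9 Fc mice and from 191 to 257 CPM (median 202) in 7 Fc(mML1)B3 mice. All but 1 of the latter, mouse 1, were below the lowest Fc mouse, and the gene fell by 0.54 on the log2 scale (SE 0.08, edgeR adjusted p = 7.36e-05). Hspa5 ranged from 701 to 1207 CPM (median 937) with Fc and from 544 to 905 CPM (median 679) with Fc(mML1)B3. All 7 Fc(mML1)B3 mice were below the Fc median and 4 below the lowest Fc mouse, and Hspa5 fell by 0.46 (SE 0.12, edgeR adjusted p = 0.0123).

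Hsp90b1 had 920.0 to 1153 CPM (median 1049) with Fc and 753 to 1042 CPM (median 879) with Fc(mML1)B3, where 5 of 7 mice were below the lowest Fc mouse. It fell by 0.27 (SE 0.06, edgeR adjusted p = 0.00681). Dnajb9 had 60.7 to 119.7 CPM (median 82.8) with Fc and 47.7 to 76.4 CPM (median 66.6) with Fc(mML1)B3. It fell by 0.40 (SE 0.13, edgeR adjusted p = 0.0426), and 10 of the 16 fits that left out 1 mouse gave an adjusted p above the threshold (range 0.0183 to 0.0922). None of the 10 genes had groups without overlap, as 2.93% of all genes tested did. Xbp1, at 198 to 375 CPM (median 233) with Fc and 181 to 373 CPM (median 237) with Fc(mML1)B3, had a log2 fold change of -0.07 with a 95% interval of -0.38 to 0.23.

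The cytosolic genes overlapped widely. Hspa8 had 924.5 to 1164 CPM (median 1047) with Fc and 1013 to 1438 CPM (median 1095) with Fc(mML1)B3, a log2 fold change of 0.15 with a 95% interval of 0.00 to 0.30 and an adjusted p of 0.161 from edgeR. Hsph1 had 33.4 to 63.9 CPM (median 42.3) and 32.4 to 64.6 CPM (median 36.5), a log2 fold change of 0.04 with an interval of -0.29 to 0.37. In 5 of the 7 Fc(mML1)B3 mice it was 40.1 CPM or less, while mice 6 and 7 had 64.6 and 64.1 CPM. The same 2 mice were the highest of the group for each cytosolic gene, with 16.0 and 17.7 CPM of Hspa1b where no other mouse exceeded 7.23. They also had the highest clock measure of the group (-3.96 and -3.84, the others -6.13 to -4.53). The intervals of Hspa1a (-0.47 to 0.84), Hspa1b (-0.39 to 0.68) and Dnajb1 (-0.12 to 0.38) were wide beside fold changes of 0.18, 0.15 and 0.13.

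In this experiment the clock measure of the groups overlapped, at -5.06 to -2.40 with Fc and -6.13 to -3.84 with Fc(mML1)B3, although 12 of 15 clock genes passed (7 higher, 5 lower). With the measure as a covariate edgeR called 5 of the 10 genes, beside 6.42% of all genes that were higher and 5.14% that were lower. Pdia4 and Hsp90b1 stayed lower, Hspa5 (-0.39, adjusted p = 0.0886 from edgeR) and Dnajb9 (-0.20, adjusted p = 0.391) no longer passed, and Hspa1b (0.70, adjusted p = 0.00535), Hspa1a (0.78, adjusted p = 0.0476) and Hspa8 (0.24, adjusted p = 0.0361) passed as higher. Over the mice of a group Hspa1b went with the clock measure with Fc (r = 0.876, permutation p = 0.0016, adjusted p = 0.0128; rho = 0.683, permutation p = 0.0504, adjusted p = 0.135) and with Fc(mML1)B3 (r = 0.876, permutation p = 0.0071, adjusted p = 0.0406; rho = 0.857, permutation p = 0.0238, adjusted p = 0.0865). Neither rho passed, and r was 0.547 and 0.549 without the 2 farthest mice. Limited to the 11 libraries of the S number run that holds both groups, the fit called Pdia4 and Hspa5 alone, beside 3.09% of all genes that were lower.

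Among the further genes, 4 of the 33 cytosolic ones were higher under the standard diet, Dnajb6 (0.55), Dnaja2 (0.38), Dnaja1 (0.40) and Hspa14 (0.20), and none was lower, with 3 at an unadjusted p below 0.05 and 1 by DESeq2. Of the ER folding genes 8 of 26 were lower, among them Sdf2l1 (-0.75), a partner of BiP, the lectin Calr (-0.32) and the disulfide isomerase Pdia6 (-0.30). Tor1a was higher (0.41). Of the export and degradation genes 6 of 20 were lower, including Syvn1 (-0.79), Sec24d (-0.24), Stt3a (-0.19), which adds sugar chains, and Sel1l (-0.19). Eif2ak3 was lower (-0.53) and Ppp1r15b, which restores translation, higher (0.34). Of 8 mitochondrial genes 4 were higher, Hspd1 (0.20), Hspe1 (0.20), Hspa9 (0.14) and Grpel1 (0.12). Of the heat shock factors Hsf4 was higher (0.31), and of the cold-inducible genes Rbm3 (0.28). Of the markers of other cells Des of stellate cells and Sox9 of cholangiocytes were lower. Among the immediate early genes Junb was lower (-1.05) and Dusp1 higher (0.83).

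**Figure D4:**
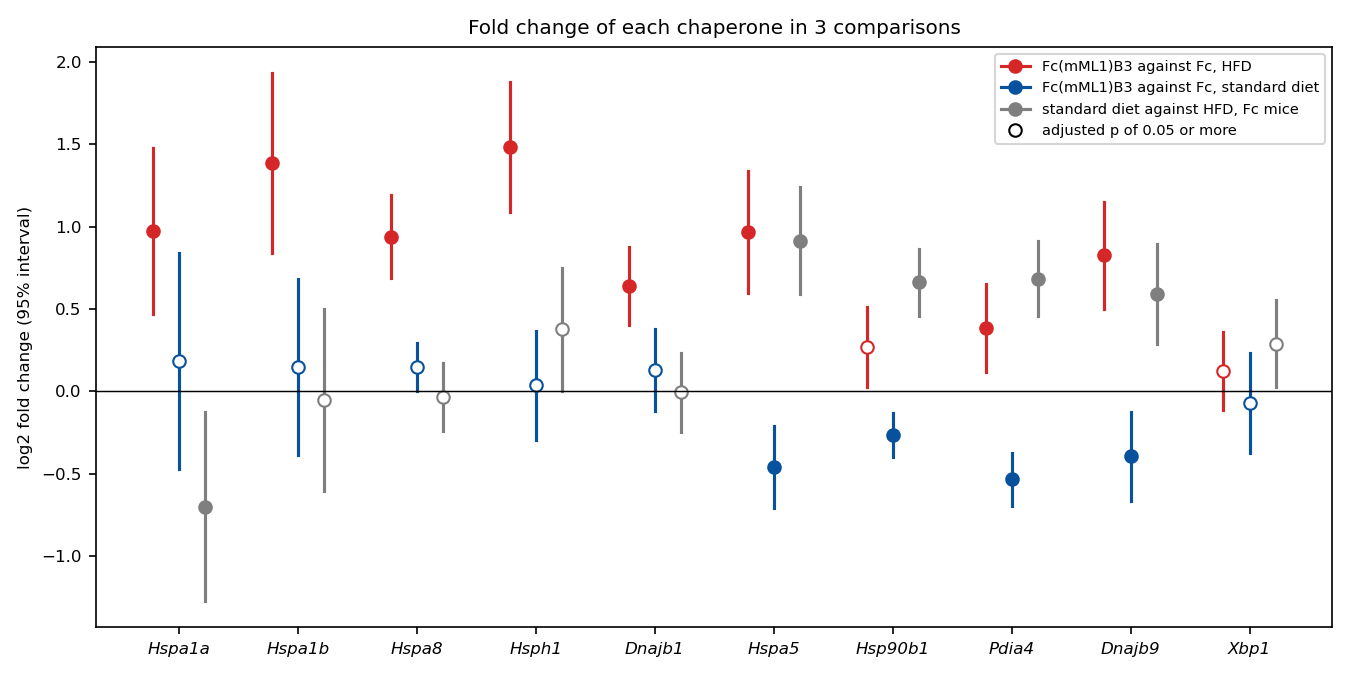
Log2 fold change of each gene with its 95% interval in 3 comparisons. Filled points passed an adjusted p below 0.05 from edgeR and open points did not; the ER genes Hspa5, Hsp90b1, Pdia4 and Dnajb9 lie above 0 under the HFD (red, Hsp90b1 open) and below 0 under the standard diet (blue), and grey marks the standard diet against the HFD in the Fc mice, while the cytosolic genes lie above 0 under the HFD and between 0.04 and 0.18 under the standard diet.

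The difference itself was tested as an interaction over all 36 libraries, as the effect of Fc(mML1)B3 under the standard diet minus that under the HFD. It was negative for all 10 genes, and edgeR called 7 of them, beside 4.40% of 14105 genes that were lower and 4.66% that were higher. The largest were Hsph1 (-1.43, standard error 0.27, adjusted p = 0.000335) and Hspa5 (-1.41, standard error 0.24, adjusted p = 7.81e-05). Hspa1b (-1.23), Dnajb9 (-1.21), Pdia4 (-0.90), Hspa8 (-0.77) and Hsp90b1 (-0.52) passed as well, Hspa1b with an adjusted p of 0.044 from edgeR that 17 of the 36 fits without 1 mouse moved above the threshold (range 0.0145 to 0.0785). Hspa1a (-0.77, 95% interval -1.60 to 0.05), Dnajb1 (-0.49, adjusted p = 0.0683 from edgeR) and Xbp1 (-0.18, 95% interval -0.57 to 0.21) did not pass. DESeq2 called Dnajb1 too (adjusted p = 0.0437).

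Genes of the lists differed too. The difference was lower for 11 and higher for 3 of the 33 genes of the cytosolic list. It was lower for 9 and higher for 1 (Tor1a) of the 26 ER folding genes, and lower for 9 of the 20 export and degradation genes. Creld2 (-1.88), Syvn1 (-1.78), Manf (-1.63) and Hyou1 (-1.58) differed more than any of the 10 genes, and Hsp90aa1 differed by -1.12. Eif2ak3 (-0.93), Ddit3 (-0.82), which encodes CHOP, and Atf6b (-0.43) were lower. The clock genes differed in 14 of 15 cases, 9 higher and 5 lower, with Arntl at -5.02. Of the markers of cell types the B and plasma cell genes Mzb1 (1.83), Ms4a1 (1.23) and Cd79a (0.92) were higher and the hepatocyte gene Hnf4a (-0.44) was lower, and their part in the chaperone difference was not tested. Since the clock moved with the agonist under the HFD, its part in the interaction cannot be told apart from that of diet, dosing and time.

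The Fc mice of the experiments were compared next, which shows where the genes stood without the agonist. The 4 ER chaperones were higher under the standard diet than under the HFD, beside 23.3% of 14105 genes that were higher, and Hspa1a was lower, beside 24.6% that were lower. Hspa5 was higher by 0.92 on the log2 scale (SE 0.16, edgeR adjusted p = 1.64e-05), with 701 to 1207 CPM against 344 to 739 CPM and 8 of 9 mice above the highest mouse under the HFD. Pdia4 was higher by 0.68 (SE 0.11, edgeR adjusted p = 5.99e-06) and Hsp90b1 by 0.66 (SE 0.10, edgeR adjusted p = 1.4e-06), and in both every mouse under the standard diet was above every mouse under the HFD, as in 9.42% of all genes. Dnajb9 was higher by 0.59 (SE 0.15, edgeR adjusted p = 0.00152).

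Hspa1a was lower by 0.70 on the log2 scale, or 1.63-fold (adjusted p = 0.0393 from edgeR), with 0.534 to 2.17 CPM against 0.621 to 2.63 CPM. This call was lost in 10 of the 36 fits without 1 mouse, with limma-voom (adjusted p = 0.124) and with no filter (adjusted p = 0.0527 from edgeR). Hspa8 (-0.04, 95% interval -0.24 to 0.17), Dnajb1 (-0.01, -0.25 to 0.23), Hspa1b (-0.05, -0.61 to 0.50), Hsph1 (0.38, 0.00 to 0.75) and Xbp1 (0.29, 0.03 to 0.55) did not pass. Of the 11 sensors and factors of the unfolded protein response 6 were higher. Among these were Ern1, which encodes IRE1, at 2.59 (adjusted p = 1.6e-13 from edgeR), Atf6 at 0.79 and Eif2ak3 at 0.63. Mbtps1, a protease that releases ATF6, was higher by 0.33. Of the ER folding genes 13 were higher and 3 lower, with Hyou1 at 1.40, Ero1lb at 1.01, Uggt1 at 0.92 and Tor1a at -0.61. Of the ER export and degradation genes 12 were higher and 1 lower. Of the other genes of the cytosolic list 5 were higher and 6 lower. Of 15 clock genes 5 were higher, among them Arntl (1.73), and 6 lower, and the clock measure was -5.06 to -2.40 against -6.88 to -4.84; the part of the clock was not tested. Hepatocyte marker Hnf4a was higher too (0.61), and 4 of 6 stellate cell and fibroblast markers, 2 of 5 macrophage markers 2 of 5 cholangiocyte markers, all 3 tested T cell markers and all 5 tested B and plasma cell markers were lower. Of 3 tested neutrophil markers 1 was lower (Retnlg, -1.22). Of 4 endothelial markers 1 was higher (Kdr, 0.23), with 2 of the 4 above 0 and a median of 0.01. The 1 tested erythroid marker, Alas2, was higher (0.75). Summed, the stellate markers had 532 to 818 CPM against 651 to 1236, the cholangiocyte markers 227 to 498 against 168 to 854 and the B and plasma cell markers 6.40 to 11.6 against 8.01 to 35.3 CPM; the part of cell makeup in these differences was not tested.

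Between the Fc(mML1)B3 mice of the experiments, 7 of the 10 genes were lower under the standard diet than under the HFD, beside 17.9% of 14105 genes that were lower and 20.7% that were higher, and 0 were higher, where no gene above 0 had an unadjusted p below 0.05 and DESeq2 called none. Hspa1a (-1.48), Hspa1b (-1.28), Hsph1 (-1.06) and Hspa8 (-0.81) differed most, and for Hspa8 every mouse under the standard diet, at 1013 to 1438 CPM, was below every mouse under the HFD, at 1701 to 2526 CPM, as in 9.90% of all genes in either direction. Dnajb9 (-0.62), Dnajb1 (-0.50) and Hspa5 (-0.50, adjusted p = 0.0224 from edgeR) were lower as well. The call of Hspa5 was lost without HFD mouse 10 or without standard diet mouse 3 of these groups (adjusted p up to 0.06 from edgeR). A permutation test of the mean log2 CPM over these mice gave p = 0.0566 for Hspa5. All 7 standard diet mice were below the HFD median and 1 was below the lowest HFD mouse. Hsp90b1 (0.14, 95% interval -0.08 to 0.36), Pdia4 (-0.22, -0.47 to 0.03) and Xbp1 (0.11, -0.17 to 0.39) did not pass. Of the 11 genes of the unfolded protein response 5 were higher, among them Ern1 (1.97), Ppp1r15b (0.56) and Atf6 (0.54), and 4 lower, among them Atf6b (-0.42). Of the 26 ER folding genes 4 were higher and 9 lower, and of the 20 export and degradation genes 3 were higher and 5 lower. Of the 33 genes of the cytosolic list 17 were lower and 1 was higher, Dnajb12 (0.21) of the ER membrane. Clock genes and markers of other cells differed here too. Of 15 clock genes 7 were higher and 5 lower, with Arntl at -3.28 and Dbp at 2.92, and the clock measure was -6.13 to -3.84 under the standard diet and -1.84 to 2.94 under the HFD. Of the markers 3 of 6 of stellate cells and fibroblasts, 2 of 5 of macrophages and 2 of 5 of cholangiocytes were lower. So were 1 of 3 tested of T cells and 1 of 3 tested of neutrophils. Of the neutrophil markers 2 of 3 were above 0 (median log2 fold change 0.50). Of 5 tested B and plasma cell markers 1 was higher (Cd79a, 0.48), as was the 1 tested erythroid marker (Alas2, 0.61). Of 4 endothelial markers 1 was higher (Kdr, 0.30), which was the only 1 above 0 (median -0.16). The summed stellate markers had 442 to 615 CPM against 637 to 1396, the macrophage markers 205 to 268 against 210.3 to 349, the cholangiocyte markers 178 to 411 against 166 to 841, the T cell markers 2.10 to 5.80 against 2.83 to 9.42 and the neutrophil markers 4.11 to 14.1 against 4.92 to 11.2 CPM. The part of the clock and of cell makeup was not tested. Both comparisons between experiments share mice with those within them, so their values are not independent of the ones above.

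How the genes vary among mice was described apart from the groups, from deviations of log2 CPM from the group mean over 36 mice. Of 45 pairs 25 passed an adjusted p below 0.05 (permutation within groups with 100000 resamples, adjusted over the 45 pairs, both for Pearson's r and for Spearman's rho), and 37 were positive. The 10 pairs of cytosolic genes had a median r of 0.70 and the 6 pairs of the 4 ER chaperones one of 0.82, whereas the 20 pairs between these sets had a median of 0.32. Closest among the ER genes were Hsp90b1 and Pdia4 (r = 0.923, rho = 0.917, permutation p = 1e-05, the smallest these permutations can give, adjusted p = 5e-05 for both), with r = 0.903 without the 2 farthest mice. Hsph1 and Dnajb1 were the closest cytosolic pair by r (r = 0.845, rho = 0.819, permutation p = 1e-05, adjusted p = 5e-05 for both, and r = 0.872 without the 2 farthest mice). By rho it was Hspa8 and Hsph1 (rho = 0.826, r = 0.812). Hsph1 was the cytosolic gene with the highest r to Hspa5 (r = 0.679, rho = 0.722, permutation p = 1e-05, adjusted p = 5e-05 for both; r = 0.642 without the 2 farthest mice).

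Xbp1 stood apart from the chaperones. Its 9 pairs had a median r of -0.27, and that with Hspa1b passed with a negative sign (r = -0.422, rho = -0.401, permutation p = 0.0197 and 0.0269, adjusted p = 0.0354 and 0.0484), though r was -0.352 without the 2 farthest mice. With Hspa5 its r was -0.115 (permutation p = 0.467, adjusted p = 0.539; rho = -0.139, permutation p = 0.408, adjusted p = 0.483). Over all 36 mice the deviations of 9 of the 10 genes from their group means also went with those of the clock measure (adjusted p below 0.05 over 10 permutation tests), positively for the chaperones, as in Hspa5 (r = 0.664, rho = 0.611, permutation p = 0.00023 and 0.00055, adjusted p = 0.00062 and 0.0011; r = 0.582 without the 2 farthest mice), and negatively for Xbp1 (r = -0.43, rho = -0.491, permutation p = 0.00284 and 0.00174, adjusted p = 0.00406 and 0.00249; r = -0.489 without the 2 farthest mice). Within single groups the sign was not the same for all of the chaperones. Pdia4 had r = 0.873 in the HFD mice given Fc(mML1)B3, -0.0998 in those given Fc, 0.556 in the standard diet mice given Fc and -0.583 in those given Fc(mML1)B3, Hsp90b1 had 0.889, 0.0249, 0.496 and -0.254 in the same order, and Hsph1 had -0.183 in the standard diet mice given Fc. The exception over all mice was Hspa1a (r = 0.285, rho = 0.314, adjusted p = 0.122 and 0.0788, permutation tests).

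**Figure D5:**
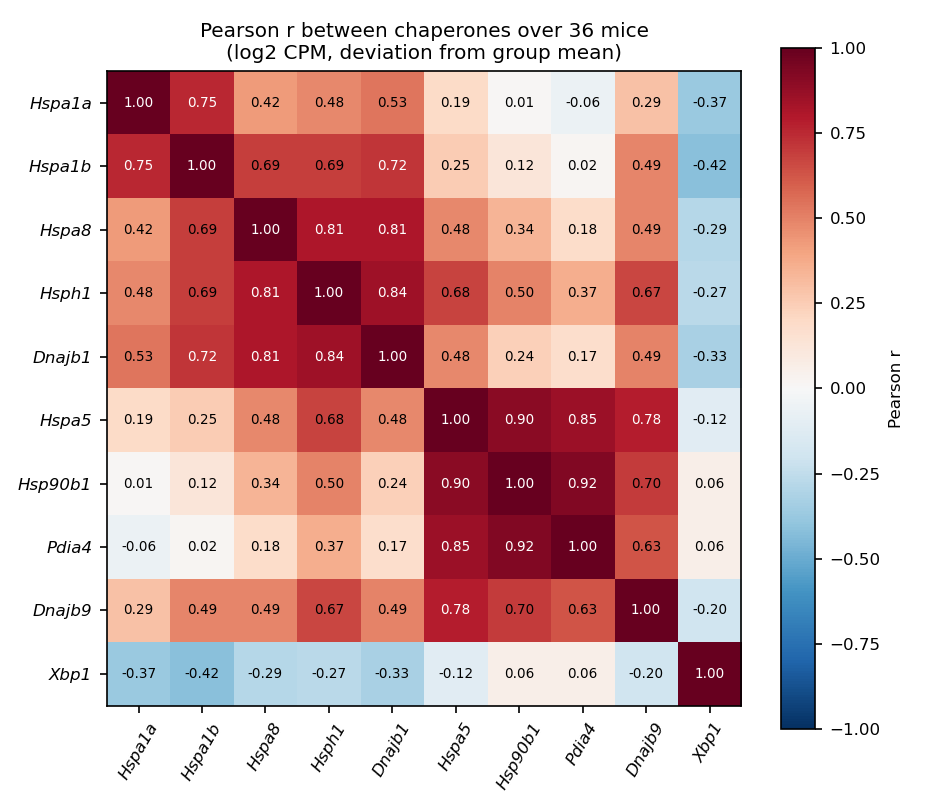
Pearson's r of each pair of genes over 36 mice, from log2 CPM after subtraction of the group mean, with r printed in each cell and red for positive values. The cytosolic genes form a block with a median r of 0.70, the 4 ER chaperones one with a median of 0.82, and the row of Xbp1 is mostly negative.

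Among the 14104 other genes of the fit over all groups, those whose deviations were most like those of Hspa5 were Manf (r = 0.949), Hyou1 (r = 0.933), Hsp90b1 (r = 0.902), Magt1 (r = 0.870), a magnesium transporter and glycosylation subunit of the ER, and Creld2 (r = 0.859). Those most like Hsph1 were Hsp90aa1 (r = 0.925), the HSP90 co-chaperones Chordc1 (r = 0.873) and Ahsa2 (r = 0.841), and Dnajb1 (r = 0.845) and Tmem248 (r = 0.839). These values rank genes over the same 36 libraries and carry no test. Manf, Hyou1, Magt1 and Creld2 rose under the HFD like Hspa5 (log2 fold changes of 1.09, 1.19, 0.50 and 1.27), and under the standard diet Manf and Creld2 fell by 0.55 and by 0.63.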

How the data were processed

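Liver RNA of 36 mice (RNAlater tissue, QIAzol, MGIEasy directional libraries, paired reads of 100 bases) was grouped by the sample titles. The values are raw counts per gene; the authors made the deposited counts with fastp, Bowtie2 2.4.5, STAR 2.7.10a on mm10 and featureCounts of Subread 2.0.3, counting each read end where both ends aligned, ignoring strand and leaving out reads with several alignments. Total counts of 14949035 to 28466853 leave genes near 1 CPM with few reads, so that counting error widens their spread.

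From these counts each diet was fitted separately, and the interaction and the comparisons between diets in 1 fit of 4 groups, by edgeR 4.0.16 and R 4.3.3 with its quasi-likelihood F statistic (TMM, filterByExpr, Benjamini-Hochberg over all genes tested, threshold 0.05). Standard errors were derived as log2 fold change over root F. Log2 CPM has a prior of 0.5. Correlations used permutations. The genes, the lists and the tests were chosen with earlier results of these data known; the named genes are the 10, up to 4 called genes per list and comparison with the smallest p, and the 5 most like Hspa5 and Hsph1, and other list genes were named after their values were seen. Simulated data with 200 genes changed 2-fold gave back 98% under the HFD, 100% under the standard diet and 95.5% for the interaction, with 5.77%, 7.41% and 4.02% of the calls false. The 200 genes were drawn from those with a mean of at least 100 reads. These rates therefore do not cover genes with fewer reads, such as Hspa1a, or changes smaller than 2-fold. Alternatives were DESeq2 1.42.0, limma-voom (limma 3.58.1), upper-quartile scaling, other filters, the study's thresholds, S number runs, a replicate block, a clock covariate and fits without each mouse; the clock correlations were added after seeing the data. The replicate numbers do not pair the mice: deviations of same-numbered mice correlated from -0.66 to 0.32 under the HFD and from -0.18 to -0.02 under the standard diet. Promoters came from RefSeq tables and transcripts from GENCODE.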

Additional observations from a re-analysis of the deposited data

Results flagged for a closer look

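The difference between Fc(mML1)B3 and Fc mice was not equal in the experiments for 7 of the 10 genes by the interaction test of edgeR, all lower, beside 4.40% of all genes that were lower and 4.66% that were higher, with log2 differences (standard diet minus HFD) of -1.23 for Hspa1b, -0.77 for Hspa8, -1.43 for Hsph1, -1.41 for Hspa5, -0.52 for Hsp90b1, -0.90 for Pdia4 and -1.21 for Dnajb9.

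In 3 of 40 sets of mice, 1 mouse lay far from the rest by Dixon's criterion, which chance flags in about 1 of 20. Hspa1a was high in HFD mouse 9 given Fc(mML1)B3 (6.28 CPM), Hsph1 in mouse 7 (63.9 CPM) and Xbp1 in mouse 5 (374.6 CPM) of the Fc group under the standard diet.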

How the results depend on the processing

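Of the 10 genes, edgeR called 8 under the HFD, 4 under the standard diet, 7 for the interaction, 5 between the Fc groups and 7 between the Fc(mML1)B3 groups. In the last 2 comparisons 17.9% to 24.6% of all genes were called in a given direction. Shares of all genes are not given for the other methods, scalings, filters, thresholds and the replicate block. Their counts therefore describe only how the calls on the 10 genes depend on the fit. In that order DESeq2 called 8, 4, 8, 5 and 7, limma-voom 9, 4, 8, 5 and 7 (between the Fc groups with Hsph1, adjusted p = 0.0201, in place of Hspa1a), upper-quartile scaling 7, 4, 7, 5 and 8, a filter at 0.5 CPM 8, 4, 7, 5 and 7, and no filter 7, 3, 7, 4 and 7. The study's thresholds on fold change left 2 under the HFD (Hspa1b and Hsph1) and 0 under the standard diet, the 4-mouse S number run left 3, the 11-library run 2 and the clock covariate 0 under the HFD. Without 1 mouse the counts were 7 to 8, 3 to 4, 6 to 8, 4 to 6 and 6 to 7. The replicate numbers do not pair the mice, and a fit with them as a replicate block called 7, 4, 6, 6 and 6. Under the block the small fold changes of Hspa1b under the standard diet (-0.024) and of Hspa1b (0.055), Hspa8 (0.011) and Dnajb1 (0.016) between the Fc groups changed sign. Sign changes elsewhere were those of Dnajb1 between the Fc groups with a filter at 0.5 CPM (0.011) or no filter (0.0042), of Hsph1 under the standard diet (-0.043), and Hspa1b (0.17), Hspa8 (0.047) and Dnajb1 (0.079) between the Fc groups with limma-voom, and of Hsph1 in the 11-library run (-0.11). With the clock covariate under the HFD, Hspa1b (-0.17), Hsph1 (-0.48), Dnajb1 (-0.070), Hspa5 (-0.99), Hsp90b1 (-0.85), Pdia4 (-0.93) and Dnajb9 (-0.76) turned negative. Without 1 mouse the sign changed for Hspa1a (-0.044 to 0.39), Hspa1b (-0.079 to 0.27), Hsph1 (-0.082 to 0.13) and Xbp1 (-0.21 to 0.019) under the standard diet, Hspa1b (-0.17 to 0.11), Hspa8 (-0.076 to 0.019) and Dnajb1 (-0.074 to 0.048) between the Fc groups, and Xbp1 (-0.032 to 0.17) between the Fc(mML1)B3 groups. Fits without 1 mouse also made calls that the full fit did not, for Dnajb1 in the interaction (5 of 36 fits) and for Xbp1 (6) and Hsph1 (1) between the Fc groups. The cause of these changes was not tested. Hspa1a, at 10 to 100 reads a mouse, is the gene most limited by depth.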
